A study of Rattus norvegicus with 24 samples.

Results

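Distal calcium and magnesium transport was followed through 10 genes that handle calcium or magnesium in the late kidney tubule: Trpv5, Trpv6, Calb1, S100g, Slc8a1, Atp2b1, Atp2b4, Trpm6, Trpm7 and Cnnm2. The genes were chosen by symbol, and each was taken from the transcript cluster (all probe sets of 1 gene) that the array annotation gives to that symbol alone. Of the 10 genes, 9 had such a cluster, 1 each, out of 14324 named genes on the array. Trpm6, the magnesium channel of the distal convoluted tubule, was not listed in the annotation used and was not analysed here.

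The samples came from 12 male Wistar rats, 6 on a standard rodent diet and 6 on a lithium diet with 40 mmol per kg of food for 7 days and 60 mmol per kg after that, both for 6 months. The lithium-treated rats were also given a salt block, which the control rats were not described as having, so lithium and added salt cannot be told apart. Each rat gave 1 array of renal cortex and 1 of renal medulla, taken as portions of frozen kidney, 24 arrays in all, and the arrays of a rat share its number. The age of the rats was not given in the sources used here. Values are log2 signal intensities, on which a difference of 1 is a doubling. The number of arrays limits the precision. In cortex, the array of lithium-treated rat 17 equalled the mean of the other lithium-treated rats on every cluster (largest difference 8.00e-05), so the lithium cortex group held 5 independent arrays and the other groups 6. The fits carry a scan term unless it is said that they do not, since the authors had removed scan date and the groups of arrays adjusted together could be recovered from the values.

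In the kidney, the distal convoluted and connecting tubules recover calcium through the cell. Calcium enters from the urine through the channels TRPV5 and TRPV6, is carried through the cytoplasm by calbindin-D28k (Calb1) and calbindin-D9k (S100g), and leaves on the blood side through the sodium-calcium exchanger NCX1 (Slc8a1) and plasma membrane calcium pumps such as PMCA1 (Atp2b1) and PMCA4 (Atp2b4). Magnesium enters the same region through TRPM6 and the related channel-kinase TRPM7, and CNNM2 is a basolateral protein needed for magnesium recovery. Vitamin D and parathyroid hormone are known to raise the calcium entry step.

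Trpv5 and Trpv6 are neighbouring genes on 1 strand of rat chromosome 4, and their upstream sequences are shown because both genes rose in medulla. The sequences are the 250 bases before the start given by RefSeq for assembly GRCr8, read 5′ to 3′ on the minus strand, at chr4:71529383-71529632 for Trpv5 and chr4:71489668-71489917 for Trpv6. For Trpv5 the annotated gene reaches further upstream than this start. Capitals mark nuclear receptor half-sites (AGGTCA or AGTTCA or GGTTCA or GGGTCA, the kind that vitamin D receptors bind in pairs) and the half-site of the cAMP response element (TGACG), searched on both strands.
Trpv5: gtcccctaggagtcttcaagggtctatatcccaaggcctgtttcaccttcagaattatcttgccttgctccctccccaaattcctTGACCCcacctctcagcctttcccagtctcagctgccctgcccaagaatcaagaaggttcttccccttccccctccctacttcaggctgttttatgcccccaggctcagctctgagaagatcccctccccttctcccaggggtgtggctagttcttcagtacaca
Trpv6: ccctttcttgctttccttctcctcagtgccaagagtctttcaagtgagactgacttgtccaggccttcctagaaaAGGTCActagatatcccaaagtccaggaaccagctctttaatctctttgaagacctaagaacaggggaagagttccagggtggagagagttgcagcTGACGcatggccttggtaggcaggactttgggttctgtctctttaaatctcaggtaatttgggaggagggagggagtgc

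The Trpv5 window held 1 match, GGGTCA on the opposite strand, and the Trpv6 window held AGGTCA together with TGACG. Such matches were common. Of 33469 RefSeq windows of the same length, 39.1% held at least 1 of the 4 nuclear receptor half-sites and 18.2% held TGACG. The windows of Slc8a1 and Trpm7 each held TGACG, and those of Atp2b1, Atp2b4 and Cnnm2 held none of the motifs.

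The first comparison asked where each gene was higher without lithium. In control rats, 6 of the 9 genes were lower in medulla than in cortex, 1 was higher and 2 did not pass. Calb1 ran from 8.43 to 10.05 on the 6 control cortex arrays (median 9.58) and from 4.81 to 5.38 on the 6 control medulla arrays (median 5.28). The groups lay far apart, with a difference of -4.32 ± 0.315 (SE; adjusted p = 1.70e-09). All 6 medulla arrays were under a log2 signal of 6, the level used to keep clusters, and with medulla taken at 6 Calb1 was at least 11.3-fold lower there. The sodium-chloride cotransporter Slc12a3, the defining marker of the distal convoluted tubule, differed in the same direction by -3.62 ± 0.166 (adjusted p = 7.36e-12). Of 11 tested genes of the distal convoluted and connecting tubule, 6 were lower in control medulla and 3 higher, Stk39 by 1.34, Tfap2b by 1.28 and Cul3 by 0.74, with a median of -0.67 against 0.50 over all clusters. Of the 9 path genes, 7 passed an adjusted p of 0.05, 6 lower and 1 higher in medulla, while 75.3% of all 16388 clusters passed, 8.63% lower and 66.7% higher. This fit treated the cortex and medulla arrays of a rat as independent. With the rat added as a random block the same 7 genes passed (adjusted p = 3.16e-10 for Calb1).

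Among the other genes lower in control medulla, Trpv5 differed by -1.83 ± 0.281, Slc8a1 by -1.64 ± 0.206 and Atp2b4 by -1.19 ± 0.159. Smaller differences were those of S100g, -0.63 ± 0.142, and Cnnm2, -0.38 ± 0.110. The Trpv5 and S100g values in control medulla were all under 6. These are a calcium channel, the exchanger, a pump, a calbindin and the basolateral magnesium protein. Trpv6 and Trpm7 did not pass (adjusted p = 0.220 and 0.525). Atp2b1 was higher by 0.20 ± 0.081. The array medians were 5.75 to 5.83 in cortex and 6.12 to 6.22 in medulla, and with arrays centred on their medians across tissues Atp2b1, Trpv6 and Trpm7 took the other sign (-0.16, -0.09 and -0.26), while the 6 genes lower in medulla stayed lower. With that centring 57% of all clusters passed and 19.8% were lower.

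**Figure D1:**
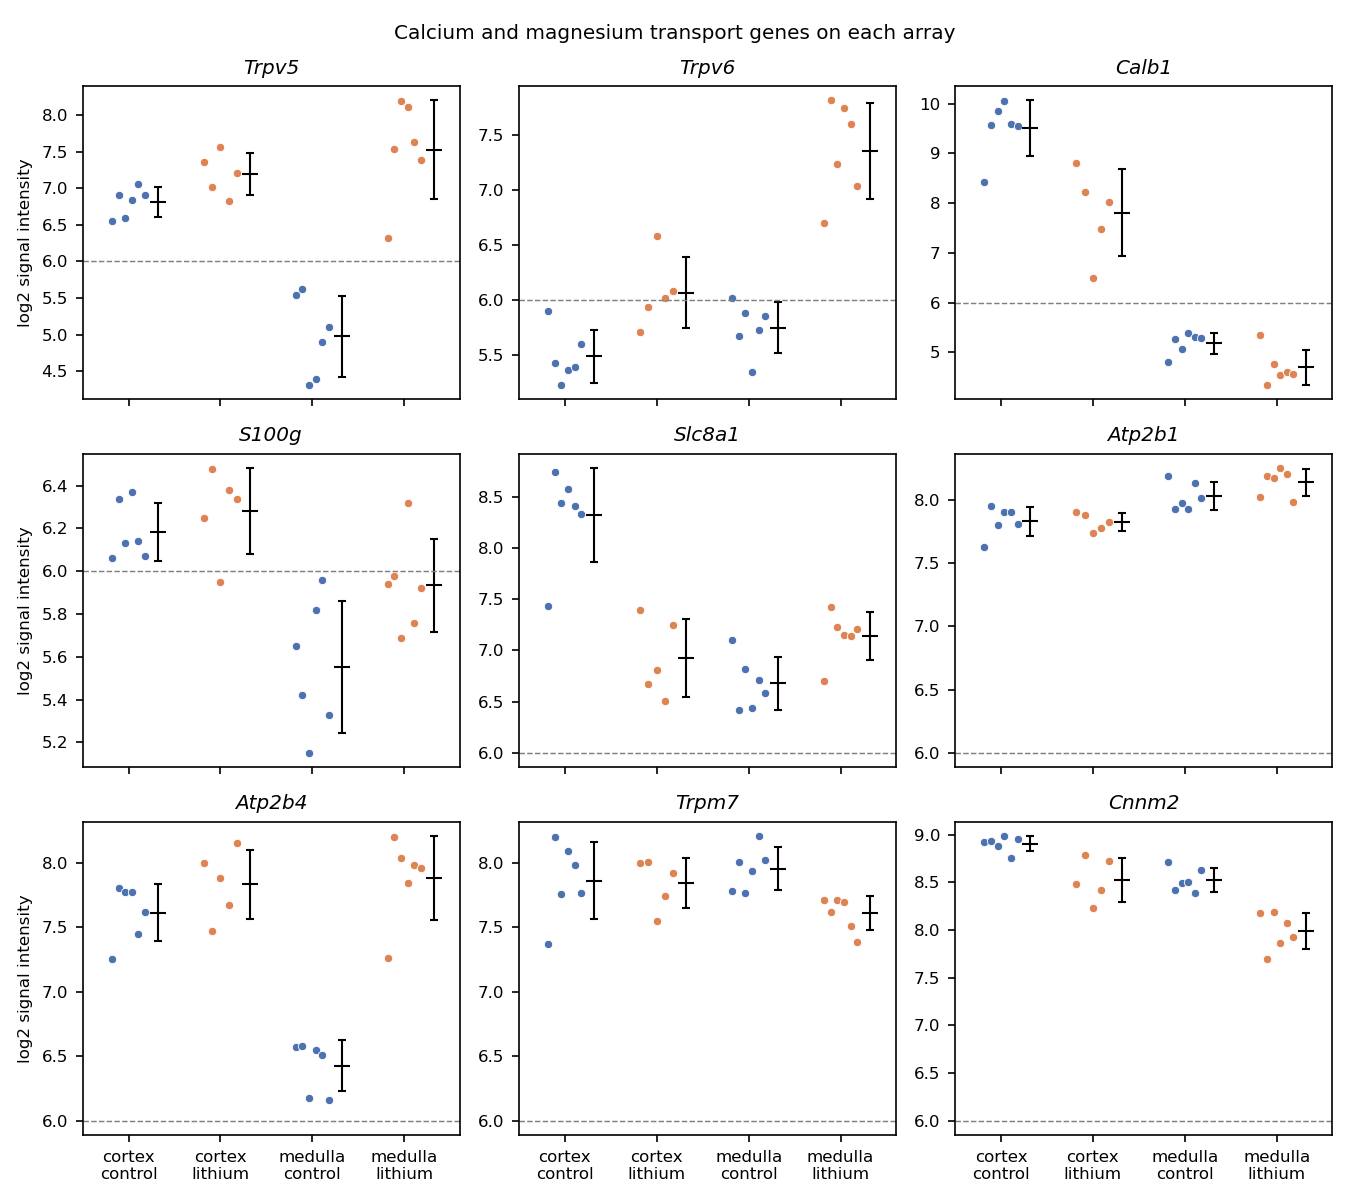
Log2 signal intensity of the 9 genes on each array (vertical axis) by tissue and diet (horizontal axis). Each point is 1 rat, black bars are the mean ± SD, and the dashed line is the level of 6 used to keep clusters; the lithium cortex group holds 5 arrays. Trpv5, Trpv6 and Atp2b4 lie higher in all 6 lithium-treated medullas than in any control medulla, as do 2.12% of all clusters. Trpm7 and Cnnm2 lie lower there without overlap, as do 1.6%. Slc8a1 lies lower in all 5 lithium-treated cortices than in any control cortex, as do 0.719%. Trpv5 and Trpv6 met the medulla filter through lithium arrays.

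The next comparisons asked what lithium changed in each tissue. In medulla, both calcium entry channels and the pump Atp2b4 were higher in lithium-treated rats and the magnesium gene Cnnm2 was lower. In cortex, the exchanger Slc8a1 was lower and no other gene of the path passed. In medulla 4 of the 7 genes tested passed an adjusted p of 0.05 (3 higher and 1 lower), where 1.19% of 16025 clusters passed (0.83% higher and 0.356% lower). In cortex 1 of 9 passed, lower, where 0.574% of 13766 clusters passed (0.465% higher and 0.109% lower). Calb1 and S100g were not tested in medulla, where they reached a log2 signal of 6 on 0 and 1 of 12 arrays and the filter asked for 4 arrays. The median log2 fold change of the genes tested was 0.46 in medulla and -0.01 in cortex, against -0.01 and 0.01 over all clusters tested. Trpv5 and Trpv6 met the medulla filter only through lithium arrays, with 0 and 1 of 6 control arrays at 6 or more. Calb1 and S100g, which did not meet it, differed by -0.49 and 0.38 with no filter. The medulla count and median thus partly rest on genes that the filter let in because lithium values were high.

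Trpv5, the channel that sets calcium entry in the distal convoluted and connecting tubule, rose in medulla. On control medulla arrays it ran from 4.31 to 5.62 (median 5.0) and on lithium medulla arrays from 6.32 to 8.19 (median 7.58). No control array reached a log2 signal of 6 and all 6 lithium arrays did, so the gene passed the filter only through the lithium group and the control level was not shown to be above background. The measured difference was 2.55 ± 0.338 (SE), with an adjusted p of 0.0068, and 0.0085 with no filter. With control arrays taken at 6, lithium arrays were at least 2.89-fold higher. Within the 3 scan groups, each with 2 arrays per diet, it was 1.35, 3.80 and 2.51.

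In cortex, Trpv5 ran from 6.55 to 7.06 on control arrays (median 6.87) and stood at 6.83, 7.01, 7.21, 7.36 and 7.56 on lithium arrays. The groups overlapped, with 3 of 5 lithium arrays above all control arrays. The difference of 0.38 ± 0.149 did not pass (adjusted p = 0.567; 95% interval 0.06 to 0.71).

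Trpv6, the second entry channel and the close relative of Trpv5, ran from 5.34 to 6.02 on control medulla arrays (median 5.79) and from 6.70 to 7.82 on lithium medulla arrays (median 7.42). The groups did not overlap, as for the 2.12% of all clusters with every lithium medulla array above every control array. Of the 6 control arrays 1 reached a log2 signal of 6, so the gene too passed the filter through the lithium group. The measured difference was 1.61 ± 0.201, with an adjusted p of 0.0051, and 0.0063 with no filter. With control arrays taken at 6, lithium arrays were at least 2.56-fold higher. The measured difference was 1.41, 1.88 and 1.53 within the scan groups. In cortex it ran from 5.22 to 5.90 in control rats (median 5.40), with lithium arrays at 5.71, 5.93, 6.02, 6.08 and 6.58. Of the 5 lithium arrays, 4 lay above every control array, and the difference of 0.58 ± 0.167 did not pass (adjusted p = 0.305). All 6 control arrays were under 6. Of the 5 independent lithium arrays 3 reached 6, and the filter was met with rat 17's array as the 4th. Without the scan term the adjusted p was 0.0439 with that array counted and 0.103 without it. TRPV5 and TRPV6 transcripts are alike in sequence, and whether probes of one cluster also bound the other transcript was not tested.

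Neither calcium-binding protein passed in cortex. Calb1, which shuttles calcium from channel to exchanger, stood at 6.5, 7.47, 8.02, 8.23 and 8.81 in lithium cortex, against the 8.43 to 10.05 of control cortex. Of the 5 lithium arrays, 4 lay below every control array, and control rat 1 (8.43) stood more than 1 log2 unit below the other control rats. The difference was -1.70 ± 0.395, 3.24-fold lower, and did not pass (adjusted p = 0.130). Without the scan term and rat 17 the adjusted p was 0.0436, and with the scan term it passed without control rat 1 (-1.91, adjusted p = 0.0445) or without lithium rat 6 (-2.20, adjusted p = 0.0289). Within the scan groups the difference was -0.19, -2.58 and -1.82, the first from 1 lithium and 2 control arrays. In medulla, where Calb1 was under 6 on every array, control arrays ran from 4.81 to 5.38 and lithium arrays from 4.34 to 5.35.

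S100g, the smaller calbindin, ran from 6.06 to 6.37 on control cortex arrays (median 6.13) and stood at 5.95, 6.25, 6.34, 6.38 and 6.48 on lithium cortex arrays. These ranges overlapped, and the difference of 0.10 ± 0.115 did not pass (adjusted p = 0.877; 95% interval -0.15 to 0.35). In medulla it ran from 5.15 to 5.96 in control rats (median 5.53) and from 5.69 to 6.32 in lithium-treated rats (median 5.93), at the edge of the filter.

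On the blood side of the cell, Slc8a1 was the gene of the path that fell in cortex. The exchanger ran from 7.43 to 8.74 on control cortex arrays (median 8.42), and lithium arrays stood at 6.51, 6.67, 6.81, 7.25 and 7.39. The groups did not overlap, though the lowest control array (rat 1, 7.43) lay next to the highest lithium array (rat 6, 7.39). Of all clusters in cortex, 0.719% had every lithium array below every control array. The difference was -1.40 ± 0.240, 2.63-fold lower, with an adjusted p of 0.0270, and within the scan groups it was -0.70, -1.77 and -1.49. The difference ran from -1.63 to -1.28 when each rat was left out in turn, but the adjusted p then ran from 5.75e-04 to 0.0996 and missed 0.05 without any one of control rats 13, 15, 16, 29 and 30 or lithium-treated rats 18, 21 and 22. Without control rat 1 the difference was -1.57 (adjusted p = 5.75e-04).

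In medulla, the mean difference of Slc8a1 had the other sign. The gene ran from 6.42 to 7.10 on control arrays (median 6.65) and from 6.70 to 7.42 on lithium arrays (median 7.18), with 5 of 6 lithium arrays above every control array. The difference of 0.46 ± 0.150 did not pass (adjusted p = 0.139), and it passed without lithium-treated rat 6 (0.57, adjusted p = 0.0325).

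Of the 2 calcium pumps, Atp2b4 passed in medulla and Atp2b1 passed in neither tissue. Atp2b4, which encodes PMCA4, ran from 6.16 to 6.58 on control medulla arrays (median 6.53) and from 7.26 to 8.20 on lithium medulla arrays (median 7.97). The groups stood apart, as they did for 2.12% of all clusters with lithium arrays above. The difference was 1.46 ± 0.161, 2.74-fold, with an adjusted p of 0.0027, and it was 1.16, 1.58 and 1.63 within the scan groups. In cortex, control arrays ran from 7.25 to 7.80 (median 7.70) and lithium arrays stood at 7.47, 7.67, 7.88, 8.0 and 8.15. The cortex groups overlapped, and the difference of 0.22 ± 0.149 did not pass (adjusted p = 0.789).

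Atp2b1, which encodes PMCA1, had narrow ranges in every group. It ran from 7.63 to 7.95 in control cortex (median 7.85), and lithium cortex arrays stood at 7.74, 7.78, 7.82, 7.88 and 7.90. In medulla it ran from 7.93 to 8.19 in control rats (median 7.99) and from 7.98 to 8.25 in lithium-treated rats (median 8.18). The difference was -0.01 ± 0.088 in cortex (adjusted p = 0.992; 95% interval -0.20 to 0.19) and 0.11 ± 0.090 in medulla (adjusted p = 0.536; 95% interval -0.09 to 0.30).

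Of the 2 magnesium genes measured, Cnnm2 was lower in lithium medulla. It ran from 8.39 to 8.72 on control medulla arrays (median 8.49) and from 7.70 to 8.19 on lithium medulla arrays (median 8.01), with no overlap. Of all clusters in medulla, 1.6% had every lithium array below every control array. The difference was -0.53 ± 0.111, 1.45-fold lower, with an adjusted p of 0.0457, and it was -0.63, -0.47 and -0.50 within the scan groups. The call lay close to the threshold: it was lost without any one of 10 of the 12 rats (highest adjusted p 0.125), all but lithium-treated rat 6 and control rat 29. In cortex, Cnnm2 ran from 8.76 to 8.99 in control rats (median 8.93), and lithium arrays stood at 8.23, 8.42, 8.48, 8.73 and 8.79. Of these, 4 of 5 lay below every control array, and the difference of -0.38 ± 0.114 did not pass (adjusted p = 0.342). Without the scan term the adjusted p was 0.0424 with rat 17's array counted and 0.106 without it.

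Trpm7, the widely expressed magnesium channel, ran from 7.77 to 8.21 on control medulla arrays (median 7.98) and from 7.39 to 7.71 on lithium medulla arrays (median 7.66). The groups did not overlap, which held for 1.60% of all clusters with lithium arrays below. Even so the difference of -0.35 ± 0.105 did not pass (adjusted p = 0.118). In cortex it ran from 7.37 to 8.20 in control rats (median 7.87), lithium arrays stood at 7.55, 7.74, 7.92, 8.0 and 8.01, and the difference was -0.02 ± 0.157 (adjusted p = 0.984; 95% interval -0.36 to 0.32).

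Without the scan term and with the 5 independent lithium arrays, 2 of 9 genes passed in cortex (Calb1 and Slc8a1, lower) where 1.1% of all clusters passed (0.814% higher and 0.291% lower). With rat 17's array counted as a 6th replicate, 4 of 9 passed in cortex (Trpv6 higher; Calb1, Slc8a1 and Cnnm2 lower) where 2.09% of all clusters passed (1.5% higher and 0.588% lower). Without the scan term 5 of 7 passed in medulla (Trpm7, lower, in addition) where 6.56% passed (3.33% higher and 3.24% lower). The 7 again included Trpv5 and Trpv6, which met the filter through lithium arrays. In these bulk tissue portions, fewer cells of a type and less RNA per cell cannot be told apart.

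**Figure D2:**
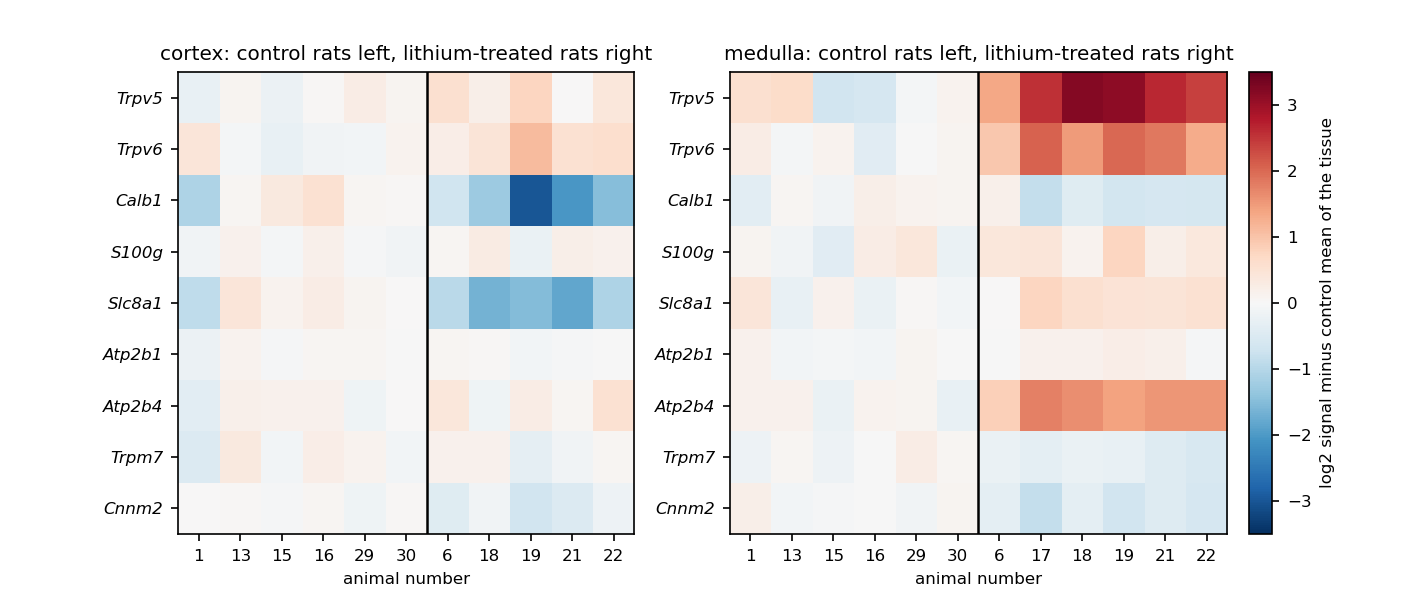
Each array's log2 signal minus the control mean of its tissue, for 9 genes (vertical axis) and the rats by number (horizontal axis), with red above and blue below the control mean; lithium-treated rat 17 is left out in cortex. Trpv5, Trpv6 and Atp2b4 are above the control mean in all 6 lithium-treated medullas, least in rat 6, and Calb1 and Slc8a1 are below it in all 5 lithium-treated cortices and in control rat 1.

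Rat 6 had the lowest values of the lithium medulla group for Trpv5 (6.32), Trpv6 (6.70), Slc8a1 (6.70) and Atp2b4 (7.26), and without it the differences were 2.85, 1.77, 0.57 and 1.61. Leaving out rat 6 also raised the number of clusters called in medulla from 190 to 1053. In cortex, the values of control rat 1 were the lowest of the control group for Trpv5, Calb1, S100g, Slc8a1, Atp2b1, Atp2b4 and Trpm7 and the highest for Trpv6 (5.90).

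The difference of the lithium effect between tissues was tested for each gene over all 24 arrays. It asks whether medulla and cortex responded unequally, which the calls in each tissue do not show. Of the 9 genes, 3 passed an adjusted p of 0.05, all with the larger value in medulla, where 0.0915% of 16388 clusters passed (15 clusters; 0.0854% with the larger value in medulla and 0.0061% in cortex). For Slc8a1, lower in lithium cortex and not in medulla, the medulla effect minus the cortex effect was 1.86 ± 0.300 (adjusted p = 0.0122). For Trpv5, whose control medulla level was under 6, it was 2.17 ± 0.409 and for Atp2b4 1.23 ± 0.231, each with an adjusted p of 0.0462.

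The remaining genes did not pass. Trpv6 differed by 1.03 ± 0.281 (adjusted p = 0.192; 95% interval 0.44 to 1.62), and Calb1 by 1.21 ± 0.459 (adjusted p = 0.319), with its medulla level under 6. The differences of S100g (0.28), Atp2b1 (0.11), Cnnm2 (-0.16) and Trpm7 (-0.33) had intervals that reached both sides of 0. In this fit the medulla effect differed from the cortex effect for a channel, the exchanger and a pump. With no filter the channel Trpv5 and the pump Atp2b4 missed the threshold (adjusted p = 0.0615 each). No difference between tissues was shown for Cnnm2, which was lower on average in both tissues.

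Both arrays of a rat share its tissue source, so the rat was also used as a block. With the rat as a random block the same 3 genes passed (adjusted p 0.0098 for Slc8a1, 0.0233 for Trpv5 and 0.0250 for Atp2b4). With the medulla minus cortex difference of each of 11 rats as the value, sizes were alike (1.79, 2.17 and 1.15) and none passed (adjusted p 0.218, 0.177 and 0.218), with 5 clusters called in all and 1944 at an unadjusted p under 0.05. With each rat left out in turn, the number of genes called ran from 0 to 3. All 3 calls held without control rat 1 or without lithium-treated rat 6 (adjusted p = 8.96e-05 and 0.0017 for Slc8a1). Trpv5 and Atp2b4 missed 0.05 without any one of the 10 other rats (highest adjusted p 0.278 for each), and Slc8a1 without any one of control rats 13, 15, 16 and 30 or lithium-treated rats 18, 19 and 21 (highest 0.115).

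**Figure D3:**
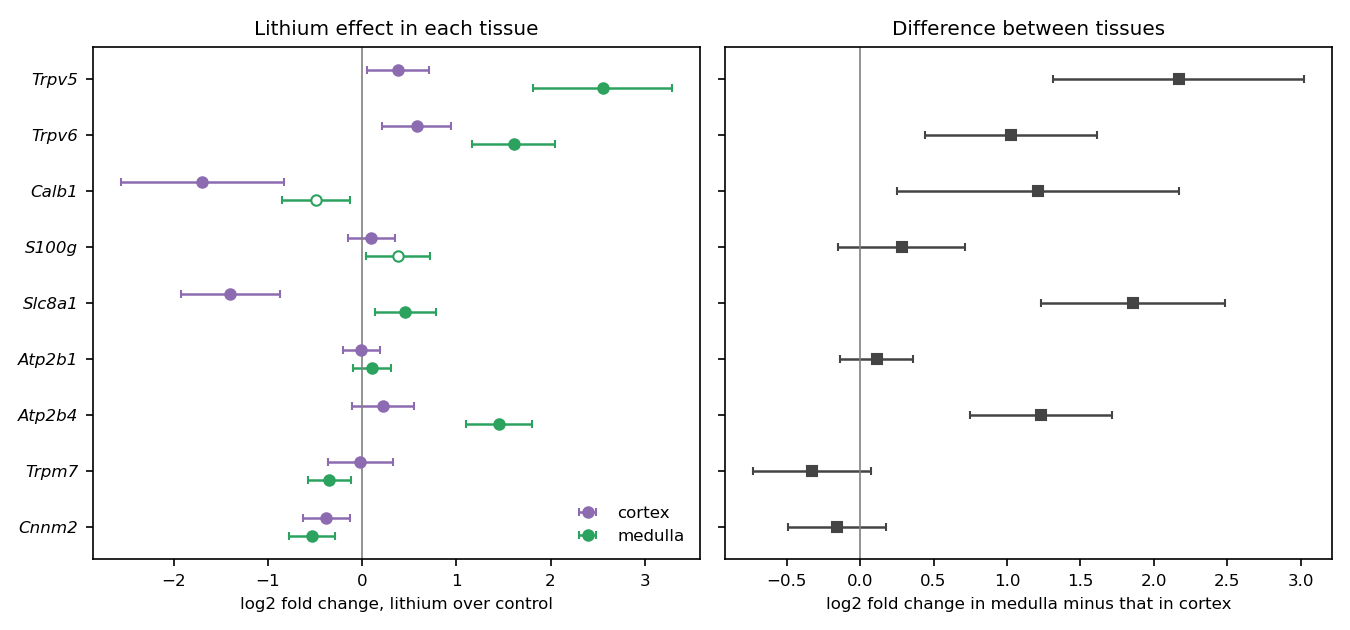
Left, log2 fold change of lithium over control (horizontal axis) for 9 genes in cortex (purple) and medulla (green); right, the medulla value minus the cortex value. Points are fitted differences with 95% intervals, and open points are genes under the filter in medulla. The intervals of Trpv5, Slc8a1 and Atp2b4 on the right lie furthest above 0, with lower ends of 1.31, 1.23 and 0.75.

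The other genes of calcium and magnesium handling were taken as lists. Of 14 homologues of the path genes, 10 had a cluster, and none of the 3 tested in cortex or 6 tested in medulla passed. Their median log2 fold changes were -0.16 and -0.31, against 0.01 and -0.01 over all clusters tested. The nearest in cortex was Cnnm1, a relative of Cnnm2, with -0.51 ± 0.107 and an adjusted p of 0.0759. The exchangers Slc8a2 and Slc8a3, relatives of Slc8a1, had group means under 6 in every group.

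Of 17 genes that regulate TRPV5, TRPV6 or TRPM6, 16 had a cluster and were tested. In cortex 1 rose and 1 fell, where 0.465% of all clusters passed as higher and 0.109% as lower. Annexin A2 (Anxa2), which with S100A10 carries the channels to the cell surface, rose by 1.2 ± 0.221 (adjusted p = 0.0389), from 7.26 ± 0.196 (SD, n = 6) to 8.46 ± 0.538 (SD, n = 5). Tissue kallikrein (Klk1), a protease of the connecting tubule that keeps TRPV5 at the surface, fell by 1.85 on the log2 scale (SE 0.287, adjusted p = 0.0145), from 10.82 ± 0.421 to 8.98 ± 0.610. In medulla none of the 16 passed, 15 had a negative difference and the median was -0.26. None of the 16 passed for the difference between tissues (adjusted p = 0.128 for Anxa2 and 0.160 for Klk1).

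Of 12 genes of calcium and vitamin D hormones, 9 had a cluster. Cyp24a1, the enzyme that breaks down active vitamin D and is a target of the vitamin D receptor, fell in both tissues. It dropped by 1.53 in cortex (SE 0.227, adjusted p = 0.0110), from 10.03 ± 0.312 to 8.5 ± 0.487. In medulla the mean went from 6.5 ± 0.274 to 5.28 ± 0.155 (SD, n = 6 each; adjusted p = 0.0029), so the lithium level was under 6. Cyp24a1 thus met the medulla filter only through control arrays, the group where it was high. Stanniocalcin 1 (Stc1), a calcium-regulating glycoprotein, rose in cortex by 1.81 ± 0.239 (adjusted p = 0.0042). In medulla it was higher by 1.06 ± 0.244 and did not pass (adjusted p = 0.0618). Its difference of the lithium effect between tissues did not pass either (adjusted p = 0.413). The receptors Vdr, Pth1r and Casr did not pass in either tissue, with cortex differences of -0.29, -0.12 and -0.61 and medulla differences of 0.41, -0.39 and -1.01. These 3 receptors, Cnnm1, Slc8a2, Slc8a3, Slc12a3, Stk39, Tfap2b and Cul3 were named after their values were seen.

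**Figure D4:**
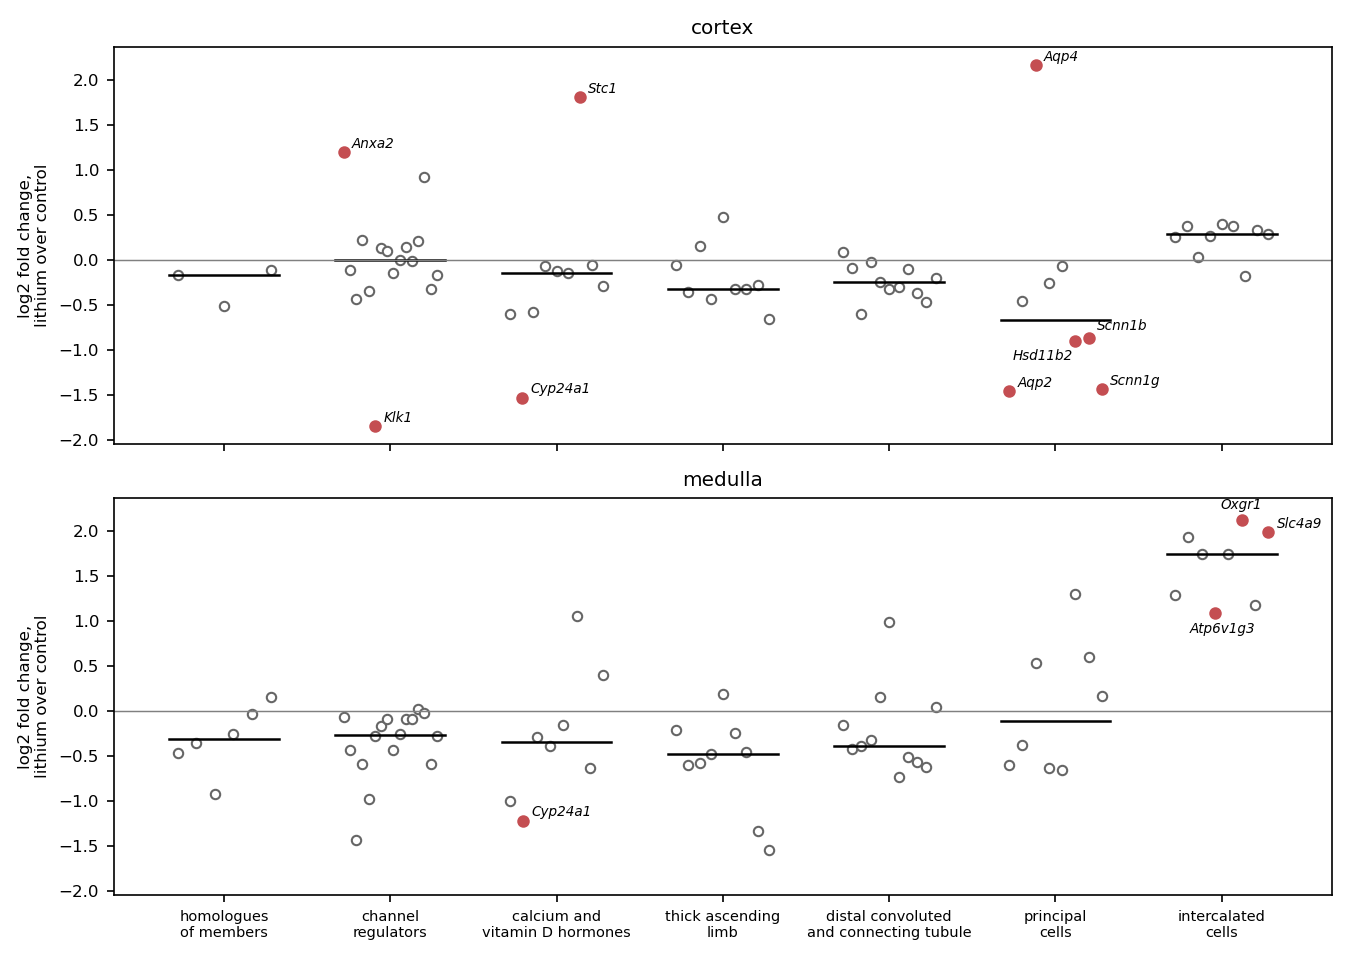
Log2 fold change of lithium over control (vertical axis) in cortex (top) and medulla (bottom) for each tested gene of 7 lists (horizontal axis). Filled red points passed an adjusted p of 0.05 and are named, open points did not, and black lines are list medians. In medulla all 8 intercalated cell genes lie above 0, with a median of 1.75, and the distal convoluted and connecting tubule list has a median of -0.39.

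No gene of the lists for the distal convoluted and connecting tubule or for the thick ascending limb passed. Of 12 measured genes of the distal convoluted and connecting tubule, 11 were tested in each tissue and none passed, with medians of -0.24 in cortex and -0.39 in medulla. In medulla the mean of this list ran from 7.85 to 8.58 on control arrays and from 7.68 to 8.27 on lithium arrays. Slc12a3 in medulla differed by -0.73 ± 0.162 (adjusted p = 0.0533), from 7.60 ± 0.270 to 6.86 ± 0.276. Of 9 tested genes of the thick ascending limb, where calcium and magnesium cross between the cells, none passed in either tissue, and the list mean in medulla spread widely, from 7.70 to 9.95 on control and from 7.20 to 9.5 on lithium arrays.

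Markers of the collecting duct did move. In cortex 5 of 8 principal cell genes passed (1 higher and 4 lower), where 0.574% of all clusters passed. Aqp4 rose by 2.17 ± 0.284, and the water channel Aqp2 and the sodium channel subunit Scnn1g fell by 1.46 and 1.44. Hsd11b2 and Scnn1b were also lower (-0.90 and -0.87). In medulla none of the 8 passed, and none of them passed for the difference between tissues. Of the intercalated cell genes, none of 9 tested passed in cortex (median 0.29), and none passed for the difference between tissues. In medulla 3 of 8 tested intercalated cell genes rose, where 0.83% of all clusters passed as higher. Oxgr1 rose by 2.13 ± 0.428 (adjusted p = 0.0411) and the bicarbonate transporter Slc4a9 by 1.99 ± 0.317 (adjusted p = 0.0156). The proton pump subunit Atp6v1g3 rose by 1.10 ± 0.201 (adjusted p = 0.0296), and the other 5 were also higher on average. The mean of 9 intercalated cell genes ran from 6.33 to 8.82 on control and from 9.0 to 9.81 on lithium medulla arrays. The part of these cells in the medulla values of the path genes was not tested.

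For other cells in the tissue portions, none of 12 proximal tubule genes passed in either tissue, and in medulla all 12 had a negative difference (median -0.70; list mean 7.27 to 9.0 in control and 6.64 to 7.97 in lithium medulla). None of 6 thin limb and papilla genes tested in cortex or 7 in medulla passed (medians 0.24 and -0.53). Of the vessel and smooth muscle genes, 1 of 6 tested in medulla fell, Emcn by 0.91 (adjusted p = 0.0462), where 0.356% of all clusters passed as lower. The median of the 6 was 0.07, with 4 positive and 2 negative, and none of 7 passed in cortex (median 0.21). Of 7 leukocyte genes in medulla, Cd68 rose by 1.06 and Cd3e went from a control mean of 5.53, under 6, to 6.21 (adjusted p = 0.0411 each). Cd3e met the medulla filter only through lithium arrays, which adds to that count. The 7 had a median of 0.68, with 6 positive and 1 negative, where 0.83% of all clusters passed as higher. None of 5 leukocyte genes passed in cortex. Of 8 tested genes of epithelial injury, 5 rose in cortex, where 0.465% of all clusters passed as higher. Krt18 and Cd44 met the cortex filter only through lithium arrays, which adds to that count. Havcr1, with group means under 6, was not tested. Lgals3 rose by 1.48, and Krt19, Krt18 and Cd44 rose from control means under 6 (5.80, 5.10 and 5.33) to 9.30, 6.67 and 6.56, so their sizes are not given as folds. Of these genes 2 rose in medulla, Krt19 by 2.65 and Cd44 by 1.14. No gene of the injury list or of the other lists in this paragraph passed for the difference between tissues. The injury list mean ran from 5.89 to 6.44 in control and from 6.94 to 8.29 in lithium cortex, and from 7.37 to 7.83 in control and 8.0 to 8.69 in lithium medulla. Their part in the path genes' values was not tested.

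For each path gene called in a tissue, the named genes most like it were found by Pearson correlation over the arrays of that tissue, which includes the diet difference and the scan adjustment that the arrays share. In cortex (11 arrays, 8295 genes), Slc8a1 was most like the potassium channel subunit Kcnab1 (r = 0.98) and the sodium channel subunits Scnn1g (0.97) and Scnn1b (0.97), and ran most opposite to Wfdc10a (-0.96), Dact2 and Vopp1. Scnn1g and Scnn1b were themselves lower in lithium cortex.

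In medulla (12 arrays, 9446 genes), Trpv5 was most like Sulf2, Tppp3 and Rnf222 (0.97 for Sulf2) and most opposite to Msmo1, Ptpdc1 and Slc38a4. Trpv6 was most like Adm2 (0.98), Sulf2 and Epb41l3 and most opposite to Phyhipl, Galm and Lgalsl, so the heparan sulfatase gene Sulf2 was among the nearest of both channels. Atp2b4 was most like Nt5c1a (0.98), Ccn3 (0.98) and Ccl28 and most opposite to Il15 (-0.98), Snx25 and Pfn2. Cnnm2, which fell, was most like Ppp4r2 (0.97), Snx16 and Xiap and most opposite to Efhd2 (-0.97), Runx3 and Pttg1. These are descriptions of 11 or 12 arrays that differ by diet.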

How the data were processed

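Log2 signal intensities of 28894 transcript clusters were deposited by the authors as 1 table for 24 Affymetrix Rat Gene 1.0 ST arrays. Per the methods and labels, the authors applied RMA background correction, quantile normalisation, log2 transformation and median polish in Partek Genomics Suite, removed scan date by analysis of variance and averaged probe sets per cluster. The submitters' processing notes name rn4, and no rn4 coordinates were used. Removing scan date narrows the spread within groups: on simulated data a fit without a scan term gave too many small p-values, so the scan term was kept.

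Of the clusters, 15097 carried 1 symbol in the platform annotation, 323 several (not named) and 13474 none. As in the methods, each tissue kept the clusters that reached a log2 value of 6 on 4 or more of its 12 arrays. Scan dates are not in the labels, so scan groups were recovered from directions without residual variance (4 in cortex, 3 in medulla). The array of rat 17 in cortex counted toward the filter, and in the fits it was alone in its scan group. Diets were compared with limma 3.58.1 (lmFit and eBayes, two-sided) in R 4.3.3 with diet and scan group, on 7 residual degrees of freedom in cortex and 8 in medulla, with Benjamini-Hochberg adjustment over all clusters kept and a threshold of 0.05. The difference between tissues was an interaction over 24 arrays. The scripts were tested on simulated data. Groups came from the titles, and rats are the replicates. The members, lists and tests were chosen with earlier results of these data known. List genes named are those past the threshold, at most 4 per list and tissue by size, except where the text lists all that passed. Promoter sequences are from RefSeq (GRCr8); Calb1 and S100g were not matched there. Cortex and medulla of a rat were paired by its number: over 11 rats and 13403 genes the correlation of their deviations from group means ran from -0.09 to 0.44, was over 0.1 in 6 and was highest with the rat's own array in 7. Alternatives were no scan term, other filters, scaling, variance model, the methods' 2-way analysis of variance, the rat as a block and each rat left out, and, chosen after seeing the data, no scan term without the cortex array of rat 17. Python 3.11.15 with pandas 2.3.3, numpy 2.4.6 and matplotlib 3.10.9 was used for tables and figures.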

Additional observations from a re-analysis of the deposited data

Results flagged for a closer look

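Control rat 1 stood apart from the other 5 control rats in cortex for 2 of the genes. Its Calb1 value was 8.43, with the next control rat at 9.55 (gap over range 0.693), and its Slc8a1 value was 7.43, with the next at 8.33 (0.686). Over 36 groups tested by Dixon's ratio at its 95% limit, 2 stood out, where chance gives about 1 in 20 (5%). Both lithium effects in cortex were larger without this rat.

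The lithium effect differed between medulla and cortex by the interaction test for Trpv5 (2.17, adjusted p = 0.0462), Slc8a1 (1.86, adjusted p = 0.0122) and Atp2b4 (1.23, adjusted p = 0.0462). These calls were lost with the medulla minus cortex difference of each rat as the value.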

How the results depend on the processing

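In cortex, where 1 gene was called, the number was 4 with no scan term, 2 with no scan term and the repeated array of rat 17 left out (an alternative chosen after seeing the data, with 152 clusters called), 2 by the methods' 2-way analysis of variance at an unadjusted p under 0.05 and a fold over 1.5 (Calb1 and Slc8a1) and 0 after Benjamini-Hochberg adjustment of it, which called 14 clusters in all with 1030 at an unadjusted p under 0.05. Leaving out each rat gave 0 to 2. In medulla, where 4 were called, that adjusted analysis of variance gave 2 (Atp2b4 and Trpv6), and leaving out each rat gave 3 to 5. Trpv5, Trpv6 and Atp2b4 were called in medulla without any single rat (highest adjusted p 0.0278, 0.0251 and 0.0144). For the difference between tissues, where 3 were called, the number was 4 with no scan term (Trpv6 in addition, adjusted p = 0.0272). That fit counted rat 17's cortex array as a 6th replicate. The number was 1 (Slc8a1) with no filter, a filter at 5, arrays centred on their medians, or an intensity trend and robust variances. The replicate block on the differences of each rat gave 0, and the rat as a random block left the number unchanged. With each rat left out it was 0 to 3. Calls over all clusters also moved: without the scan term 288 in cortex, 1052 in medulla and 357 for the difference between tissues, against 79, 190 and 15. The adjusted analysis of variance called 37 in medulla, and leaving out 1 rat gave 50 to 1053 there and 34 to 92 in cortex. The call of Cnnm2 in medulla was lost with no filter (adjusted p = 0.0575), with a filter at 5, with quantile normalisation repeated and in the adjusted analysis of variance. The cause of these shifts was not tested. Control medulla against control cortex took the other sign for Atp2b1 (-0.16), Trpv6 (-0.094) and Trpm7 (-0.26) with arrays centred across tissues. In cortex the lithium effects near 0 changed sign with a rat left out, Trpm7 between -0.12 and 0.065 and Atp2b1 between -0.045 and 0.019. Over all single genes and alternatives other than leaving out each rat in turn, 203 values kept their direction and side of the threshold, 17 lost the call, 6 gained it and 3 took the other sign. No gene had a second cluster, so that alternative was not run. Signal below a log2 of 6 limits Calb1 and S100g in medulla, the control values of Trpv5 in medulla and of Trpv6 in both tissues, and the list genes said to lie under 6.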
